A study of Mus musculus with 6 samples.

Results

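The genes described here are 10 junction and mesenchymal genes read during the epithelial-mesenchymal transition, out of 31055 features counted: the junction genes Cdh1, Epcam, Cldn3, Cldn4 and Cldn7, the mesenchymal genes Vim, Emp3 and Cdh2, and the repressors Zeb1 and Snai2. They were listed by name, and Vim and Emp3 were selected on their measured rise in tumour epithelium in these data. The differences of Vim and Emp3 between Tumor epithelium and the earlier stages, and of all 10 genes between Tumor and DCIS epithelium, are therefore given as a description with no test. Single-cell RNA sequencing (10x Genomics) was performed on mammary tissue of female C3Tag mice, in which part of the rat C3(1) promoter drives the SV40 large T antigen in an FVB/NJ background. All 6 libraries came from mice that carry this transgene, so none is a transgene-free control.

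The stages were Prepuberty (whole mammary gland at 5 weeks of age, 2 libraries), DCIS (whole gland holding ductal carcinoma in situ at 14 weeks, 2 libraries) and Tumor (palpable tumours from mice older than 18 weeks, 2 libraries). The labels do not say that the libraries of a stage came from different animals, so p-values measure only the spread between libraries, which may be technical. Stage, tissue taken and, per the study's methods, the dissociation kit cannot be told apart. The methods also give a later version of the library kit for Tumor 2, whereas the labels name the same kit for all libraries. After filtering, 21537 cells remained, with 2548 to 4306 cells a library and a median of 6541 to 13631.5 UMIs (unique molecular identifiers, each 1 captured transcript) a cell, highest in Tumor 2. Pairs of libraries shared 7 to 34 cell barcodes.

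Epithelial cells are held together by adherens junctions, in which E-cadherin (Cdh1) binds the same molecule on the neighbouring cell, and by tight junctions, in which claudins seal the space between cells. Mesenchymal cells have an intermediate filament network of vimentin (Vim) and often carry N-cadherin (Cdh2), and repressors such as Zeb1 and Snai2 (Slug) lower transcription of epithelial junction genes by binding E-box motifs. In mammary tumours a low-claudin state is known, with low Cldn3, Cldn4, Cldn7 and Cdh1 beside high Vim.

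Cldn3 (chr5:134986214-134987472, + strand) and Cldn4 (chr5:134945119-134946934, - strand) lie next to each other on the genome, and Cldn7 (chr11:69964779-69967885, + strand) lies apart from them, in GRCm38 coordinates of the GENCODE M21 annotation. Epcam, an adhesion molecule of epithelial cells, lies at chr17:87635979-87651129 (+ strand). Vim lies at chr2:13573927-13582826 (+ strand), Emp3, a small membrane protein gene, at chr7:45918023-45921404 (- strand), Cdh1 at chr8:106603351-106670246 (+ strand) and Snai2 at chr16:14705852-14709385 (+ strand). No position or sequence is given for Cdh2 and Zeb1.

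The 250 bases upstream of the RefSeq transcription start (GRCm38.p6) are shown for 4 genes: the claudins that were lower in Tumor epithelium, and Epcam and Vim, whose joint presence in single cells is described further on. Capitals mark the E-box letters CACCTG or their reverse complement CAGGTG, searched on both strands, which Zeb1 and Snai2 are known to bind. The Cldn4 window is chr5:134946935-134947184 (- strand), the Cldn3 window chr5:134985964-134986213 (+ strand), the Epcam window chr17:87635729-87635978 (+ strand) and the Vim window chr2:13574061-13574310 (+ strand).
Cldn4: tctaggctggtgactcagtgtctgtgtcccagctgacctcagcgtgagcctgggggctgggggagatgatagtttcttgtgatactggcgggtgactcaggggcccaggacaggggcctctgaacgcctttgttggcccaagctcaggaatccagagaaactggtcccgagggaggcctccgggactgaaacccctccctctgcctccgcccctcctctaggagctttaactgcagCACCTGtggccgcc
Cldn3: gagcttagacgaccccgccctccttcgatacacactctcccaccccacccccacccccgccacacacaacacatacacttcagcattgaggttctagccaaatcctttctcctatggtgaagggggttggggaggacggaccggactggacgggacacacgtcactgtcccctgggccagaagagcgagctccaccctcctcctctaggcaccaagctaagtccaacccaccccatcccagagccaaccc
Epcam: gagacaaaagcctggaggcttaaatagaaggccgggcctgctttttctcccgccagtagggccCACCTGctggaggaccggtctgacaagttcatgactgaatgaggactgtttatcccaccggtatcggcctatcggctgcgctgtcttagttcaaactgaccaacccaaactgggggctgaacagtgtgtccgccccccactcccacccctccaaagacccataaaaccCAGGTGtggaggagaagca
Vim: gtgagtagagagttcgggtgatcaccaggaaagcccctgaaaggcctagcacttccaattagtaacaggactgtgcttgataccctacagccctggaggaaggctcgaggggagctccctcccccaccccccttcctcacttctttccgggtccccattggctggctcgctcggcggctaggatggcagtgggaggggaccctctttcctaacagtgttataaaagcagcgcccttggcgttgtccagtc
The Cldn4 window held the motif once, 14 bases before the start, and the Epcam window held it at 187 and 19 bases before the start. The Cldn3 and Vim windows did not hold these letters. Of 32851 windows of the same length upstream of RefSeq starts, 5657 (17.2%) held the motif, so its presence in a window is a description and not a binding site.

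Cells were clustered without the 10 genes and without the T antigen, and clusters were named from fixed markers that include none of the 10. Epithelial-like cells numbered 781 and 108 in the Prepuberty libraries, 1148 and 896 in the DCIS libraries, and 2455 and 1343 in the Tumor libraries. Fibroblast-like cells numbered 2074 and 1666, then 642 and 1267, then 261 and 275. Levels are given as CPM, the UMIs of a gene with all UMIs of a class in a library scaled to 1000000, a scale on which a gene can be compared between classes and libraries but not with another gene, and intervals and floors cover counting error only.

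Across cell classes the 5 junction genes were higher in epithelial-like than in fibroblast-like cells, and Vim and Emp3 were lower there, also in the Tumor libraries. Cdh2 did not keep to this order, since its Tumor epithelial-like values (5.69 and 8.68 CPM) were above the fibroblast-like values of Prepuberty and DCIS (0.372 to 2.10). Cdh1 had 110 to 290 CPM in the 6 epithelial-like sums, 35.8 to 170 in the myoepithelial-like sums and 0.247 to 12.3 in the fibroblast-like sums. Cldn3 had 340 to 908 in epithelial-like cells against 1.05 to 23.4 in fibroblast-like cells, and Cldn4 had 72.7 to 637 against 0.851 to 2.98. The epithelial and fibroblast ranges did not overlap for Cdh1, Cldn3, Cldn4, Cldn7 or Epcam. In Schwann-like cells, the glia of peripheral nerves, Cdh1 reached 68.2 to 85.6 CPM in the Prepuberty and DCIS libraries, where Cldn3 stayed between 2.51 and 11.4.

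Vim was highest in Schwann-like cells in the Prepuberty and DCIS libraries, at 2866 to 4891 CPM, and in endothelial-like cells in the Tumor libraries, at 4986 and 2349. Fibroblast-like cells had 445 to 2107 and macrophage-like cells 429 to 2182, so these classes overlapped. Zeb1 was high in T-cell-like cells, at 60.2 to 254 CPM, and in endothelial-like cells, at 83.2 to 173, which overlapped each other and the 21.4 to 123 of fibroblast-like cells. Snai2 was instead highest in myoepithelial-like cells of the Prepuberty and DCIS libraries, at 36.0 to 76.7, against 4.69 to 27.6 in fibroblast-like cells. In the Tumor libraries the myoepithelial-like values of Snai2, 16.9 and 29.3, overlapped the fibroblast-like values of 15.7 and 19.1, from only 37 and 61 myoepithelial-like cells.

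**Figure D1:**
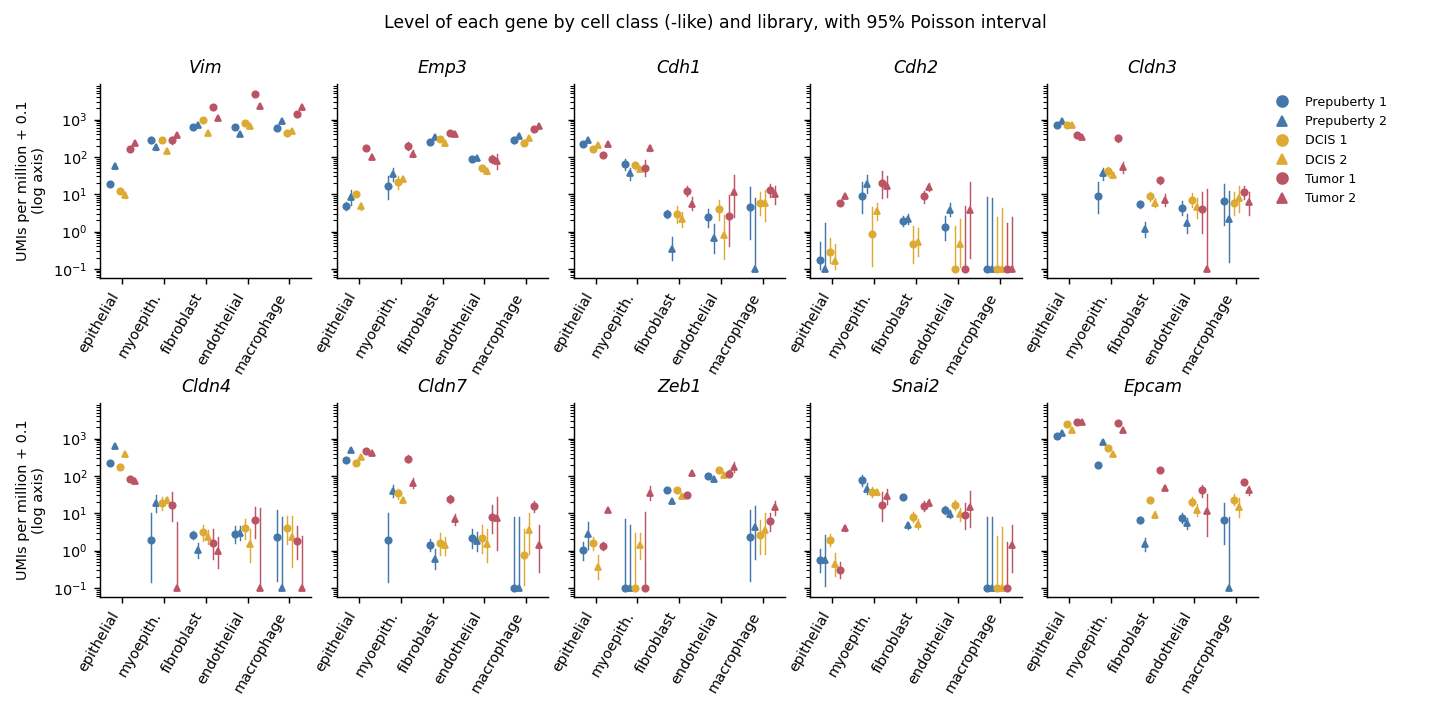
Level of each of the 10 genes in CPM (log axis) in the cell classes of each library, one point a library, coloured by stage. Cdh1, Epcam and the claudins sat highest in epithelial-like sums, and the Tumor points of Vim and Emp3 in epithelial-like cells (163 and 229 for Vim) stood above the Prepuberty and DCIS points (9.43 to 56.9).

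In epithelial-like cells, the main comparison of the stages asked whether junction genes fell and mesenchymal genes rose from the Prepuberty gland to the tumour. Vim, the intermediate filament gene, had 19.1 and 56.9 CPM in Prepuberty, 12.4 and 9.43 in DCIS, and 163 and 229 in Tumor. Emp3 had 4.72 and 8.45, then 10.3 and 4.62, then 178 and 98.1. For both genes the Tumor libraries were above every other library, while Prepuberty and DCIS overlapped only for Emp3. Of the 128 Vim UMIs in the epithelial-like cells of Prepuberty 2, 91 were in 10 of its 108 cells (clusters 0 and 3), and without those cells its level was 19.3 CPM. The fold changes, scaled by TMM (trimmed mean of M values), were 2.14 (Vim) and 4.26 (Emp3) on the log2 scale for Tumor against Prepuberty, and 3.75 and 3.88 for Tumor against DCIS.

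Markers of other cell types were read in the same epithelial-like sums, among them the fibroblast marker Dcn, which encodes the matrix proteoglycan decorin. Dcn had 92.0 and 49.8 CPM in the Prepuberty epithelial-like sums, 33.4 and 131 in DCIS, and 2.83 and 15.7 in Tumor. Of the other stromal markers, Col1a1 ranged from 1.25 to 11, Col3a1 from 2.99 to 35.7 and Lum from 0.178 to 13.2 over the 6 libraries, and Col1a2 was highest in Tumor 2 at 49.0. The immune marker Ptprc was between 0 and 0.696 CPM in all 6. Fibroblast-like cells made up 49.0% and 47.6% of all cells in Prepuberty but 6.06% and 10.8% in Tumor. The part of RNA from other cells in the Vim values was not tested.

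N-cadherin (Cdh2) was at the edge of detection before the tumour. It had 1 and 0 UMIs in the Prepuberty epithelial-like cells, 3 and 1 in DCIS, and 229 and 244 in Tumor. As a level this was 5.69 and 8.68 CPM in Tumor, whereas 0 UMIs in Prepuberty 2 allows up to 1.33. The summed counts gave a ratio of Tumor to Prepuberty of 107, with an exact 95% counting interval from 19.0 to 4218, and the test called Cdh2 higher (adjusted p = 0.0230, edgeR quasi-likelihood test with Benjamini-Hochberg adjustment). At these counts Cdh2 could pass the filter on low counts through the Tumor libraries alone. Only a call as higher was therefore open to it, and the call gives no direction. In macrophage-like cells no UMI of Cdh2 was counted in any of the 6 libraries.

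The claudin pair Cldn3 and Cldn4, tight junction proteins, was lower in Tumor epithelium. Cldn4 had 222 and 637 CPM in Prepuberty, 172 and 377 in DCIS, and 84 and 72.7 in Tumor. Cldn3 had 703 and 908, then 699 and 730, then 389 and 340. The Tumor libraries lay below all 4 others for both genes, and the Prepuberty and DCIS values overlapped. Against Prepuberty, Cldn4 fell by 2.68 on the log2 scale (SE 0.58, adjusted p = 0.0390) and Cldn3 fell by 1.4 (SE 0.31, adjusted p = 0.0416) in the edgeR test. Against DCIS the differences were -2.20 and -1.35.

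Cldn7, the remaining claudin, was not called. It had 270 and 506 CPM in Prepuberty, 226 and 325 in DCIS, and 468 and 417 in Tumor, and the Tumor values lay within the Prepuberty range. Its log2 difference from Prepuberty was -0.05 with TMM scaling (SE 0.38, 2 SE either side -0.81 to 0.71, adjusted p = 0.945) and 0.19 without it, so its direction depended on the scaling. E-cadherin (Cdh1) had 227 and 290 CPM, then 164 and 214, then 110 and 222. Cdh1 was lowest in Tumor 1, while Tumor 2 lay within the range of the other 4 libraries, and its log2 difference of -0.96 from Prepuberty did not pass the test (SE 0.34, 2 SE either side -1.63 to -0.28, adjusted p = 0.110).

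Epcam was the junction gene with higher Tumor values. It had 1184 and 1387 CPM in Prepuberty, 2457 and 1754 in DCIS, and 2846 and 2726 in Tumor. All DCIS and Tumor libraries were above both Prepuberty libraries, but with TMM scaling neither difference passed the test (log2 difference 0.82, SE 0.32, adjusted p = 0.356 for DCIS, and 0.85, SE 0.32, adjusted p = 0.124 for Tumor). Without TMM scaling the Tumor difference was 1.12 and passed (adjusted p = 0.0467).

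The repressors stayed rare in epithelial-like cells. Zeb1 had 12 and 6 UMIs in Prepuberty, 24 and 4 in DCIS, and 50 and 334 in Tumor, or 1.24 and 11.9 CPM in the Tumor libraries. Snai2 had 6 and 1, then 29 and 5, then 8 and 113 UMIs. For both genes Tumor 2 stood above all others. Tumor 1 lay within the 0.264 to 2.67 CPM of the earlier stages for Zeb1 and was the lowest library for Snai2, at 0.199 CPM. The log2 difference of Zeb1 from DCIS, 2.36, was 0.25 without Tumor 2. In Tumor 2 Zeb1 was also above Tumor 1 in fibroblast-like (123 against 31.4 CPM), endothelial-like (173 against 115) and macrophage-like cells (14.4 against 6.13), and the part of the library in the epithelial value was not tested. Neither passed the test against Prepuberty (Zeb1 1.67, SE 1.19, adjusted p = 0.378, Snai2 1.73, SE 1.47, adjusted p = 0.461).

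Thus 3 of the 8 genes tested between Tumor and Prepuberty epithelium were called, 1 higher and 2 lower, where 7.50% of 13293 genes were called (481 higher and 516 lower, or 800 and 320 without TMM). The higher one, Cdh2, gives no direction, since it could pass the filter on low counts through the Tumor libraries alone. Beyond 1 on the log2 scale between Tumor and DCIS lay 6 of the 10 genes, against 28.5% of all genes, a count that the choice of Vim and Emp3 in part fixed. Between DCIS and Prepuberty epithelium none of the 10 was called and 0% of all genes were called by edgeR, while 1753 of 13293 genes had an unadjusted p under 0.05 and DESeq2 called 322, among them Vim as lower in DCIS (log2 difference -1.62 in both tools, adjusted p = 0.295 in edgeR and 0.0478 in DESeq2). The calls against Prepuberty rested on both Prepuberty libraries, the second of which had only 108 epithelial-like cells: without Prepuberty 1 or without Prepuberty 2 none of the 3 was called (Cldn4 -3.20 and -1.90, Cldn3 -1.50 and -1.34, adjusted p from 0.0982 to 0.167, and for Cdh2 0.125 and 0.0974), and in those fits only 1 of 14273 and 0 of 14238 genes were called in all. Without Tumor 2, Cldn4 missed the threshold (-2.44, adjusted p = 0.0578) and Cdh1 passed it (-1.35, adjusted p = 0.0384).

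The epithelial-like class was made up differently at each stage, so the genes were also read within its clusters, as a description. The clusters were numbers 10 (led by Tph1 and Prlr, a hormone receptor gene), 12 (led by the milk genes Csn1s1 and Ltf), 9 (led by Ankrd1 and Ccl20), 0 (led by the cell cycle genes Cenpf and Ube2c) and 3 (led by Pthlh and Acan, and holding Krt14). Cluster 10 held 363 of the 781 epithelial-like cells of Prepuberty 1 and 25 of the 2455 of Tumor 1, whereas cluster 3 held 16 and 977. Krt14, a basal keratin and a marker of the myoepithelial list, is among the leading genes of cluster 3, which was kept as epithelial-like by a rule set after its leading genes were seen. With a stricter naming that drops cluster 3, Cldn3 was not called between Tumor and Prepuberty (-1.19, adjusted p = 0.0567), nor was it with only the 4 libraries compared (-1.42, adjusted p = 0.0930), while Cldn4 and Cdh2 were called in both.

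Within clusters 0, 9 and 12 the Tumor values of Vim were above those of the earlier stages that could be read, by little in cluster 9. In cluster 0 it had 27.1 CPM in Prepuberty 1, 15.6 and 14.6 in DCIS, and 184 and 282 in Tumor, and Prepuberty 2 had only 8 cells there and is not given. In cluster 9 it had 25 and 21.2 in Prepuberty, 8.17 and 11.2 in DCIS, and 56.0 and 29.4 in Tumor, where the counting intervals of Tumor 2 (24.3 to 35.2) and Prepuberty 1 (19.5 to 31.5) overlapped. In cluster 12 it had 7.48 and 4.56 in DCIS, 17.7 and 19.3 in Prepuberty, and 33.8 and 36.6 in Tumor. In cluster 10 the Tumor values of Vim, 18.3 and 11, rested on 6 and 8 UMIs and lay within the Prepuberty values of 12.4 and 18.5. The highest epithelial Vim was in cluster 3 of the Tumor libraries, at 225 and 313.

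Emp3 was ordered alike in both Tumor libraries, with 219 and 128 CPM in cluster 3, 199 and 108 in cluster 0, 116 and 52.8 in cluster 9 and 50.9 and 32.2 in cluster 12. In each of these clusters both Tumor values of Emp3 were above the Prepuberty and DCIS values, the highest of which was 37.0. Cldn3 ran against this order. It had 298 and 185 in cluster 3 of the Tumor libraries, 396 and 305 in cluster 0, 429 and 566 in cluster 9 and 664 and 681 in cluster 12. In cluster 12 Cldn3 had 708 and 898 in DCIS and 745 and 876 in Prepuberty, and in cluster 0 it had 703 and 650 in DCIS, so the Tumor values were the lowest in both clusters.

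Cldn4 was also lower in the cycling cluster 0 of the Tumor libraries, at 72.0 and 41.1 CPM against 140 and 221 in DCIS. In the milk gene cluster 12 it had 102 and 83.4 in Tumor, which lay within the 66.8 and 233 of DCIS. Cldn4 is given here only for clusters 0 and 12 and only beside DCIS. These values therefore do not show whether its called difference from Prepuberty held within clusters. Epcam was high in every epithelial-like cluster of the Tumor libraries, from 2289 and 2292 in cluster 3 to 3939 and 3443 in cluster 12.

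One cluster outside the named classes held Epcam beside Vim and Emp3 in the Tumor libraries. Cluster 14 (led by the cartilage matrix gene Acan, Stmn2 and Wnt10a) had too few of the fixed markers for a name, and it held 325 and 301 cells of the Tumor libraries and 56 of Prepuberty 1. In the Tumor libraries its Vim was 1135 and 819 CPM and its Emp3 was 423 and 288, while its Epcam was 890 and 275. Its Cldn3 was 91.1 and 15.4, its Cldn4 18.9 and 1.06, its Cldn7 134 and 21.2 and its Cdh1 33.2 and 18.2. All 5 junction genes were thus below both Tumor values of the epithelial-like class and Vim and Emp3 above them.

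Cells of cluster 14 with at least 1 UMI of T antigen made up 73.8% and 62.8% in the Tumor libraries and 0 of 56 in Prepuberty 1. The cells of cluster 14 were not alike between libraries: the Tumor 1 cells had 4.55 CPM of Dcn and 4.01 of Zeb1, the Tumor 2 cells 228 and 59.8, and the Prepuberty 1 cells 3106 and 50.1. The 56 Prepuberty 1 cells had 984 CPM of Vim but only 7.16 of Epcam and 1.19 of Cldn3, and so did not share the Epcam of the Tumor cells in this cluster.

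Joint detection of Epcam and Vim in the same cell was measured after each cell was thinned to 3000 UMIs, which left out 15 to 101 shallower epithelial-like cells a library. Among epithelial-like cells, 3.24% (22 of 680, exact 95% binomial interval 2.04 to 4.86) and 3.13% (3 of 96) held both in Prepuberty, and 2.79% (30 of 1077) and 2.46% (21 of 853) in DCIS. In the Tumor libraries 17.0% (408 of 2400, interval 15.5 to 18.6) and 21.2% (282 of 1328, interval 19.1 to 23.5) held both. The Tumor libraries were above all 4 others. Unthinned, the shares were 20.9% and 17.6%, then 9.58% and 10.4%, then 39.7% and 45%. With 2 libraries a stage, an exact two-sided permutation test of such shares cannot go below p = 0.333, so none was made.

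Most Vim-positive epithelial-like cells still held Epcam. Cells with Vim and without Epcam made up 0.333% in Tumor 1 and 5.50% in Tumor 2, and 0 to 2.08% in the other libraries. Epcam and Emp3 were found together in 31.0% and 17.3% of Tumor epithelial-like cells and in 0.938% to 3.71% of those of the other stages. In cluster 14, 50.6% and 24.1% of the Tumor cells held both Epcam and Vim, and 15.2% and 60.1% held Vim without Epcam, so the libraries differed in which of these states was more common.

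Free RNA in the droplets can add UMIs to these shares. In macrophage-like cells, which do not express Epcam, Epcam was found in 17.1% and 7.03% of thinned Tumor cells and in 0 to 7.49% elsewhere. In fibroblast-like cells it was found in 21.8% and 6.90% of Tumor cells, so in Tumor 2 the fibroblast share was at the background, and in Tumor 1 its interval of 16.8 to 27.5 overlapped that of the macrophage-like cells, 13.0 to 21.9. In epithelial-like cells Epcam was found in 93.3% to 99.3% of cells, far above this level. The joint share is limited by Vim, found in 17.3% and 26.7% of thinned Tumor epithelial-like cells and in 2.46% to 5.21% of the others. Every other class read here has Vim itself, so the part of free RNA in the Vim and Emp3 shares was not tested.

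The myoepithelial-like cells, the contractile basal layer, are a gland lineage that has Vim from the start. Their Vim was 285 and 184 CPM in Prepuberty, 282 and 145 in DCIS, and 279 and 386 in Tumor, and these ranges overlapped. Their Emp3 was 16.4 and 34.5, then 20.9 and 25.6, then 200 and 122, with both Tumor values above the rest. Their Epcam was 197 and 831, then 573 and 383, then 2591 and 1701. The Tumor values came from 37 and 61 cells, of which 45.9% in each library had a UMI of T antigen, against at most 0.535% at the earlier stages. These cells went against their label in part: the basal keratin Krt5 was 221 to 369 CPM at the earlier stages and 81.8 and 54.0 in Tumor, and Cdh3 (P-cadherin, of the basal layer) was 62.6 to 91.3 and then 0 and 9.26.

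The T antigen was used to ask whether the genes differ between cells in which the transgene was detected and those in which it was not, within a library. Among epithelial-like cells 14.1% and 2.78% had a UMI of T antigen in Prepuberty, 30.7% and 18.9% in DCIS, and 73.0% and 58.5% in Tumor. Detection depends on the depth of a cell, so cells without a UMI are not cells without the transgene, and Prepuberty 2 had too few positive cells to enter. The split also pools all epithelial-like clusters. The paper reports a luminal cluster with high Prlr and without T antigen. Cluster 10, led by Tph1 and Prlr, held 363 of 781 epithelial-like cells in Prepuberty 1 and 370 of 896 in DCIS 2. The part of cluster make-up in the split was not tested. Cldn4 was lower in the positive cells in all 5 libraries tested, at 187 against 234 CPM in Prepuberty 1, 164 against 178 in DCIS 1, 259 against 422 in DCIS 2, 80.3 against 102 in Tumor 1 and 65.6 against 88.7 in Tumor 2.

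The log2 difference of Cldn4 was -0.45 (SE 0.086, adjusted p = 0.0213, edgeR with library as a block), the only call among the 10 genes, where 1.73% of 13147 genes were called (34 higher and 194 lower). The call was lost after thinning (-0.40, adjusted p = 0.226), with T antigen required at 2 or more UMIs (-0.57, adjusted p = 0.0520), without Prepuberty 1 (-0.46, adjusted p = 0.0616) and without DCIS 2 (-0.35, adjusted p = 0.0615). Cldn3 had 703 against 703 in Prepuberty 1, 721 against 682 in DCIS 1 and 734 against 728 in DCIS 2, but 355 against 559 in Tumor 1 and 306 against 416 in Tumor 2 (log2 difference over the 5 libraries -0.27, SE 0.088, adjusted p = 0.162). Vim had 172 CPM in the positive cells of Tumor 1 against 120 in the negative ones, and 237 against 212 in Tumor 2. The log2 difference of Vim over the 5 libraries was 0.23 (SE 0.093, adjusted p = 0.268), so Vim was high in Tumor epithelial-like cells with and without a T antigen UMI.

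**Figure D2:**
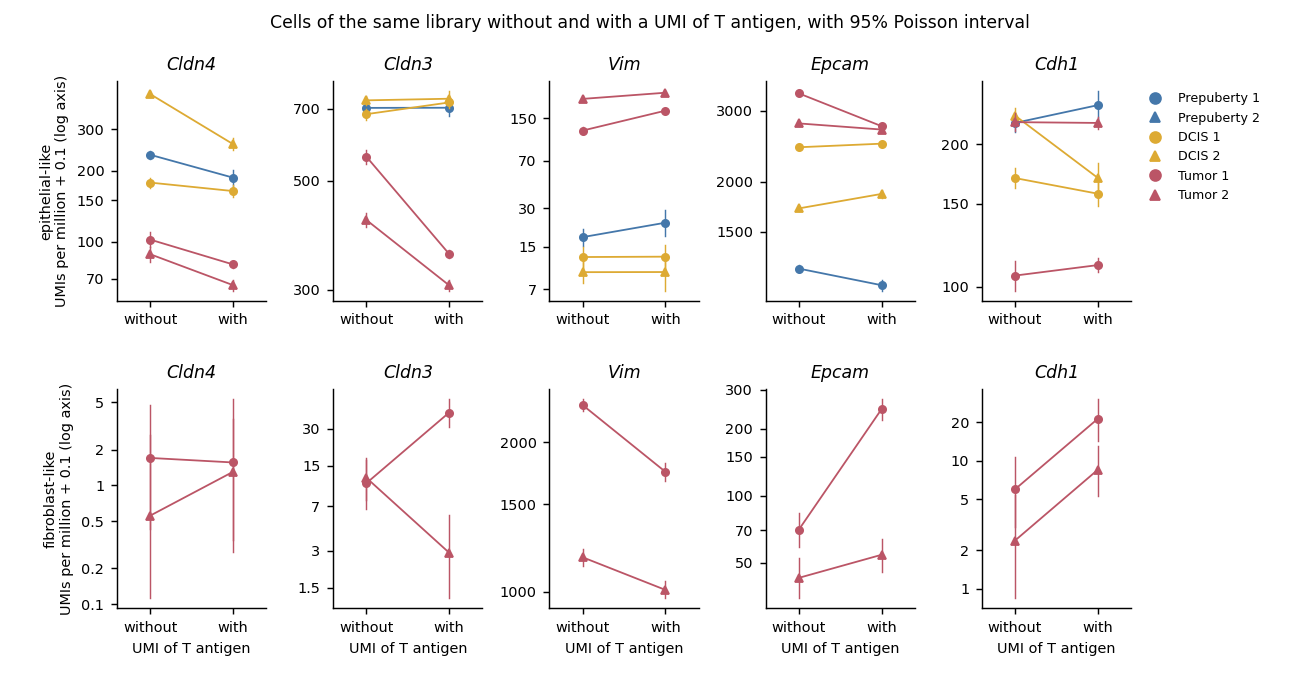
Level in CPM (log axis) in cells without and with a UMI of T antigen, joined by a line for each library with bars for the Poisson interval of the counts, for epithelial-like and fibroblast-like cells. Prepuberty 2 has no points. Cldn4 was lower with T antigen in all 5 epithelial libraries, and Epcam in fibroblast-like cells was higher with T antigen, at 246 against 70.4 in Tumor 1 and 54.3 against 42.8 in Tumor 2.

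Fibroblast-like cells were next, where the question was which junction and mesenchymal genes the stromal cells of a tumour carry, with and without T antigen. The class in the Tumor libraries was not clean. Its Dcn was 4406 and 5182 CPM in Prepuberty, 6593 and 4914 in DCIS, and 1774 and 3584 in Tumor, and its keratin Krt18 was 6.17 to 26.8 before the tumour and 391 and 54.2 in Tumor. Cells with more UMIs of the stromal markers than of keratins made up 97.5% to 100% of the class in the other libraries, 68.2% in Tumor 1 and 87.3% in Tumor 2. Among the T-antigen-positive cells of Tumor 1 they made up 34.4% (31 of 90), so most of those cells went against their label.

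Vim in fibroblast-like cells was 614 and 717 CPM in Prepuberty, 946 and 445 in DCIS, and 2107 and 1086 in Tumor. Both Tumor values were above the rest, and with TMM scaling the log2 difference from Prepuberty was 0.88 (SE 0.55, 2 SE either side -0.22 to 1.97, adjusted p = 0.352). Emp3 was 256 and 352, then 295 and 232, then 437 and 423, a log2 difference of 0.06 with TMM scaling and 0.51 without (adjusted p = 0.935 with TMM). For both, the direction was positive under both scalings and no difference was called.

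Cdh2 was higher in the Tumor fibroblast-like cells than in both earlier stages. It had 40 and 34 UMIs in Prepuberty, 2 and 4 in DCIS, and 28 and 73 in Tumor, or 1.85 and 2.10, then 0.372 and 0.433, then 8.63 and 15.5 CPM. The 3 stages did not overlap, with DCIS lowest. Tumor exceeded DCIS by 4.12 on the log2 scale (SE 0.61, adjusted p = 0.00952) and Prepuberty by 2.11 (SE 0.50, adjusted p = 0.0406) in the edgeR test. Restricted to cells with more stromal than keratin UMIs, the Tumor against DCIS difference was 4.22 (adjusted p = 0.0214) and the Tumor against Prepuberty difference 2.20 (adjusted p = 0.0597). Without DCIS 1 or DCIS 2 the first was 4.02 and 4.20 and not called (adjusted p = 0.0748 and 0.10).

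Epcam and Cldn7 were the junction genes called in Tumor fibroblast-like cells. Epcam had 6.47 and 1.42 CPM in Prepuberty, 22.7 and 8.98 in DCIS, and 144 and 48.9 in Tumor (log2 difference from Prepuberty 4.22, SE 0.95, adjusted p = 0.0355). Cldn7 had 1.34 and 0.494, then 1.49 and 1.30, then 24.3 and 6.81 (log2 difference 3.67, SE 0.87, adjusted p = 0.0402). At these levels Cldn7 could pass the filter on low counts through the Tumor libraries alone, so its call gives no direction. Epcam moved alike in macrophage-like cells of the same libraries, at 6.58 and 0 in Prepuberty, 23.3 and 14.7 in DCIS, and 69.2 and 41.3 in Tumor. The part of free RNA in the fibroblast values was not tested. In cells with more stromal than keratin UMIs neither was called (Epcam 3.41, adjusted p = 0.0631, Cldn7 2.81, adjusted p = 0.0890).

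These 3 genes were the calls for Tumor against Prepuberty, where 9.32% of 12139 genes were called, and Cdh2 was the 1 call for Tumor against DCIS, where 14.1% were called. With the replicate number as a block, Epcam (1.85, adjusted p = 0.0163) and Cldn7 (2.49, adjusted p = 0.0364) were called against DCIS too, among 2206 genes in place of 1712. Leaving out Prepuberty 1, Prepuberty 2 or Tumor 1 left none of the 3 called against Prepuberty (Epcam 5.73, 3.43 and 2.88, Cldn7 4.59, 3.05 and 2.13, Cdh2 2.02, 2.08 and 2.26), and leaving out Tumor 2 left Epcam and Cldn7. Between DCIS and Prepuberty fibroblast-like cells none of the 10 was called and 0% of all genes were called by edgeR, with 1242 of 12139 at an unadjusted p under 0.05 and 90 called by DESeq2. Cdh1 (2.86 and 0.247, then 2.79 and 2.06, then 12.3 and 5.53 CPM) and Cldn3 (5.22 and 1.05, then 8.74 and 5.84, then 23.4 and 7.02) did not pass (adjusted p = 0.246 and 0.231 against Prepuberty). Zeb1 was 40.7 and 21.4, then 43.0 and 28.5, then 31.4 and 123, and Snai2 was 27.6 and 4.69, then 8 and 5.09, then 15.7 and 19.1, with overlapping stages for both.

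T-antigen-positive fibroblast-like cells numbered 90 (34.5%) in Tumor 1 and 121 (44.0%) in Tumor 2, against 0 to 4 cells in each of the other libraries. In macrophage-like cells of the Tumor libraries 4.71% and 1.60% had a UMI of T antigen. Vim was high on both sides of the split, at 1743 CPM in positive cells against 2374 in negative cells of Tumor 1 and 1009 against 1174 in Tumor 2 (log2 difference -0.42, SE 0.22, adjusted p = 0.666). Epcam was 246 against 70.4 and 54.3 against 42.8 (log2 difference 1.00, SE 0.35, adjusted p = 0.261), and Cdh1 was 21.1 against 5.87 and 8.39 against 2.28 (log2 difference 1.74, SE 0.53, adjusted p = 0.152). Both positive values were above their negative partners for Epcam and Cdh1, but none of the 9 genes tested was called, where 1.97% of 10381 genes were called (5 higher and 200 lower). Cldn4 had 1 to 3 UMIs on each side and was not tested.

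In the T-antigen-positive cells with more stromal than keratin UMIs (31 and 107 cells), the fibroblast marker Dcn was 1880 and 3829 CPM and Vim 2358 and 1028. Epcam was 119 and 60.3 there against 47.1 and 36.3 in stromal cells without T antigen, and Cdh1 was 13.0 and 8.75 against 4.40 and 1.68, from 6 and 19 UMIs. Zeb1 was 52.1 and 146 against 45.2 and 114, and Cdh2 had 0 and 41 UMIs. These cells were chosen for T antigen and for stromal markers, Dcn among them, so the presence of both is no finding. Their Epcam was below the 2846 and 2726 CPM of epithelial-like cells.

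Other genes of the same roles were taken from lists of 48 junction and epithelial genes and 40 mesenchymal genes. In epithelial-like cells, Tumor against Prepuberty, 1 of 47 tested epithelial genes was higher and 4 were lower, with a median log2 difference of -0.43 beside 0.09 over all genes, of which 7.50% were called. The tight junction scaffold genes Cgn (cingulin) and Tjp3 were among the lower ones. Cgn had 166 and 114 CPM in Prepuberty, 298 and 184 in DCIS, and 22.5 and 43.7 in Tumor (-2.43, SE 0.41, adjusted p = 0.0249), and Tjp3 had a difference of -2.60 (SE 0.34, adjusted p = 0.0186). The desmosome plaque gene Pkp1 was the higher one, with 11 and 20.5, then 54.1 and 23.3, then 76.6 and 113 (2.35, SE 0.46, adjusted p = 0.0321).

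Of 39 tested mesenchymal genes 6 were higher and 3 lower in Tumor than in Prepuberty epithelium, with a median of 0.98, beside 481 higher and 516 lower of 13293 genes in all. The transcription factor gene Twist1 had 0.380 and 0.445 CPM in Prepuberty, 0.378 and 0.396 in DCIS, and 18.6 and 10.9 in Tumor (4.93, SE 0.68, adjusted p = 0.0207). At these levels Twist1 could pass the filter on low counts through the Tumor libraries alone, so its call gives no direction. The matrix proteoglycan gene Vcan had 1.22 and 1.33, then 1.96 and 1.19, then 58.3 and 67.3 (5.33, SE 0.41, adjusted p = 0.0185). The 3 lower genes, Tagln, Acta2 and Tpm1, encode parts of the contractile apparatus, with Tagln at 119 and 384, then 59.4 and 78.9, then 7.33 and 5.62 (-5.48, SE 0.62, adjusted p = 0.0185). Over all 39 genes 29 differences were positive and 10 negative. The list was chosen with earlier results of these data known. Genes rare before the tumour could also pass the filter through the Tumor libraries alone. These counts therefore give no direction for the list. The paper uses Tagln and Acta2 as markers of myoepithelial cells, and the part of free RNA in their values was not tested. Against DCIS, 2 were higher (Vcan 4.92 and Twist1 4.89) and 2 lower (Acta2 and Tagln), and 2 of 47 epithelial genes were lower (Cgn and Cldn1) and 0 higher, where 3.19% of 13293 genes were called. The limit on the Twist1 call holds there too.

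In fibroblast-like cells 28 of 47 epithelial genes passed the filter on low counts, which a gene can pass through the Tumor libraries alone. The 8 called higher and 0 lower in Tumor than in Prepuberty, where 9.32% of all genes were called, therefore give no direction for the list. The desmosome gene Dsg2 was one of them (0.739 and 0.432, then 1.30 and 0.758, then 16.3 and 19.6 CPM). Of 38 mesenchymal genes 5 were higher and 1 lower, the lower one being Twist2 at 295 and 162, then 171 and 175, then 21.9 and 27.7 (-3.69, SE 0.43, adjusted p = 0.00661). Twist1 had 23.7 and 66.6 in these Tumor sums against 35.8 and 25.4 in Prepuberty, which overlap. With T antigen, 6 of 37 mesenchymal genes were lower and 0 higher in Tumor fibroblast-like cells, where 1.97% of 10381 genes were called (5 higher and 200 lower). Col3a1 was among the 6, at 2173 against 8976 in Tumor 1 and 2131 against 4171 in Tumor 2 (-1.60, SE 0.24, adjusted p = 0.00182). None of the 21 epithelial genes tested in that split was called. In Tumor 1, 34.4% of the cells with T antigen and 86.0% of those without had more stromal than keratin UMIs. Restricted to cells with more stromal than keratin UMIs, the split called 36 of 10103 genes. The part of this cell mix in the calls was not tested. In the epithelial-like split 1 of 47 epithelial genes (Ocln, -0.39, SE 0.089, adjusted p = 0.0458) and 1 of 39 mesenchymal genes (Ecm1, -0.57, SE 0.12, adjusted p = 0.0265) were lower with T antigen, shares near the 1.73% of all genes called there.

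The genes most alike in pattern were ranked by Pearson's r of the log2 level over 40 sums of a class in a library, among 10258 genes, as a description of sums that share libraries and depth. Epcam and Cldn7 were among each other's 3 nearest (r = 0.93), and Cldn3 had the keratin gene Krt18 (0.94) among its nearest 3. Emp3 had the galectin gene Lgals1 (0.77) and Vim (0.75) among its nearest 3, whereas the nearest to Vim was Ap1s2 (0.80). Cldn4 was nearest to Slc5a8 (0.90), Cdh1 to Kcnk1 (0.90), Zeb1 to Fyn (0.80) and Snai2 to Nfatc4 (0.83). Cdh2 was under the level filter of this ranking.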

How the data were processed

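Each library was deposited as a matrix of raw UMI counts per gene and cell, made by the authors with Cell Ranger 3.0.2 per the file headers. The genome build used for these counts is not given in the sources used here, and UMIs over 31055 features were not normalized before deposit. Cells with at least 200 genes and under 10% mitochondrial UMIs were kept, and Scrublet in scanpy 1.11.5 ranked doublets, of which the top 0.8% per 1000 cells were removed. Of 23835 barcodes, 546, 1045 and 707 were removed in turn. Seurat 5.3.0 integrated the libraries on 2000 features without the 10 genes, the T antigen and the neomycin gene, and clustered them on 20 dimensions at resolution 0.8. A cluster was named from at least 3 fixed markers at 2-fold or more. Counts were summed per library and class (at least 10 cells) and tested in R 4.3.3 with edgeR 4.0.16 (TMM, filterByExpr, quasi-likelihood F test, stage as a factor, all 6 libraries, or library as a block for the T antigen split), calling an adjusted p under 0.05 (Benjamini-Hochberg over all genes tested). In the epithelial-like sums TMM factors ran from 0.869 (DCIS 2) to 1.31 (Tumor 2) and in the fibroblast-like sums from 0.797 to 1.51, so changes relative to UMIs and relative to TMM differ: without TMM the median of all genes moved by 0.30 and 0.40 (epithelial-like, Tumor against Prepuberty and against DCIS) and by 0.49 and 0.72 (fibroblast-like). The epithelial-like sums held 2246937 to 40169149 UMIs of tested genes. Genes called from the 2 lists were named up to 3 a direction, by adjusted p. The members and lists were chosen with earlier results of these data known. The steps were tested on simulated data.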

Additional observations from a re-analysis of the deposited data

Results flagged for a closer look

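Vim and Epcam were split by T antigen in opposite directions in the classes of the Tumor libraries, and none of these contrasts between classes was tested. On the scale of log2(CPM + 1), Vim differed between cells with and without a T antigen UMI by 0.51 and 0.16 in the epithelial-like cells of Tumor 1 and Tumor 2, and by -0.45 and -0.22 in the fibroblast-like cells. Epcam differed by -0.27 and -0.05 in the epithelial-like cells, by 1.79 and 0.34 in the fibroblast-like cells, and by -0.21 and -0.27 in cluster 14. Epcam was thus lower with T antigen in epithelial-like cells, by little in Tumor 2, and in cluster 14, and higher with it in fibroblast-like cells. Of the T-antigen-positive fibroblast-like cells, 34.4% in Tumor 1 and 88.4% in Tumor 2 had more stromal than keratin UMIs. Within the classes neither gene was called in the edgeR test. Adjusted p was 0.374 (Epcam) and 0.268 (Vim) in epithelial-like cells over all libraries tested, and 0.261 and 0.666 in fibroblast-like cells.

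Cdh1 and Cldn3 differed between Tumor and Prepuberty in opposite directions in the same classes. The Cdh1 difference was -0.63 in epithelial-like and 1.96 in fibroblast-like cells, and the Cldn3 difference was -1.14 and 1.97. The difference between classes was not tested. Cdh1 passed the edgeR test in neither class, and Cldn3 did not pass it in fibroblast-like cells (adjusted p = 0.231), a class that was not clean in the Tumor libraries.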

How the results depend on the processing

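The counts of the 10 genes past the threshold changed with several choices. Between Tumor and Prepuberty epithelium 3 were called, 4 by DESeq2 or without TMM, 1 with replicate block (Cdh2, with Cldn4 at adjusted p = 0.0512), 1 with the genes and T antigen kept for clustering, 1 with a marker gate per cell, 2 with the strict naming and 2 with only the 4 libraries compared (Cldn3 lost in both), 0 without integration and 0 in cells with T antigen alone (where 0 of 12915 genes were called in all), and 0 to 3 when a library was left out. Between DCIS and Prepuberty epithelium 0 became 1 with DESeq2 and 1 with no filter on low counts (Vim in both). For fibroblast-like cells, Tumor against DCIS, 1 became 3 without TMM, 2 with DESeq2, 3 with no filter, 3 with replicate block and 0 to 2 when a library was left out. For Tumor against Prepuberty 3 became 5 with no filter, 1 with only the 4 libraries compared, 0 without integration, 0 with the marker gate, 1 without T-antigen-positive cells, 0 in cells with more stromal than keratin UMIs and 0 to 2 when a library was left out. For DCIS against Prepuberty 0 became 1 with no filter (Epcam). In the epithelial-like T antigen split 1 became 2 with no filter, 0 with no replicate block, 0 without integration, 0 with the marker gate, 0 at 2 or more UMIs of T antigen, 0 after thinning and 0 to 1 when a library was left out. The cause was not tested in these cases. The shares with Epcam and Vim unthinned, 20.9%, 17.6%, 9.58%, 10.4%, 39.7% and 45%, are from cells at full depth. Over all genes, calls for Tumor against Prepuberty epithelium were 997, 2448 with DESeq2, 2873 with no filter, 646 with replicate block and 0 without integration, where Tumor 2 kept 129 epithelial-like cells.

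The 16 gene differences followed through the alternatives were those called in the main run or counted there as large between Tumor and DCIS epithelium. They include Vim and Emp3, chosen for their rise. They also include Cdh2 in epithelial-like and Cldn7 in fibroblast-like cells against Prepuberty, which could be called only as higher. None of the 16 reversed its direction, which this choice in part fixed, so it does not show how stable the directions are. Without TMM 4 differences that were not called changed sign: Cldn7 in epithelial-like cells, Tumor against Prepuberty (-0.05 to 0.19), and in fibroblast-like cells Emp3, DCIS against Prepuberty (0.03 to -0.21), Snai2, Tumor against Prepuberty (-0.39 to 0.11), and Cdh2 in the T antigen split (-0.07 to 0.01). With 2 libraries a stage and no shared animal or batch in the labels, the numbers are at most a hint of pairing: deviations of same-numbered libraries correlated at -0.06 to 0.11 in the epithelial-like and 0.11 to 0.35 in the fibroblast-like sums, and the block gave the counts above. The strict naming of clusters, the cells with T antigen alone, the removal of T-antigen-positive or keratin-rich cells and the scaling without TMM were chosen after seeing the data. Leaving out a library was not possible for the fibroblast-like T antigen split, which has 2 libraries. A lone remaining library was assumed to vary like the other groups. Depth limits Cdh2, Zeb1 and Snai2 in epithelial-like cells to 0 to 29 UMIs a library before the tumour.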

Other observations

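Twist1 was also read across classes, and Fn1 (fibronectin, a matrix protein) in epithelial-like and myoepithelial-like cells. Twist1 had 18.6 and 10.9 CPM in Tumor epithelial-like cells, 28.2 and 15.4 in the 37 and 61 Tumor cells of the myoepithelial-like class, whose Krt5 and Cdh3 were low, 24.4 and 28.5 in the Tumor cells of cluster 14 and 23.7 and 66.6 in Tumor fibroblast-like cells, whereas before the tumour it had at most 0.445 in epithelial-like and 0.450 in myoepithelial-like cells. Fn1 had 46.5 and 52.5 CPM in Prepuberty epithelial-like cells, 215 and 78.9 in DCIS, and 843 and 364 in Tumor. In myoepithelial-like cells Fn1 was 117 and 65.2, then 31.0 and 11.5, then 902 and 350 in those same Tumor cells. The paper names Fn1 among the genes that set Tumor macrophages apart, and the part of free RNA in its values was not tested. These genes were chosen after their values were seen, so the values are a description, and the limit on the Twist1 call holds here too.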
